A study of Mus musculus with 4 samples.

Results

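Il7r, Il2rb, Il2rg, Il4ra, Il21r, Il6ra, Il10ra, Ifngr1 and Il18r1 encode receptor chains through which T cells read cytokines. These 9 genes were taken by name from the 27998 genes counted in T cells of the pancreatic islets, and all 9 had a row of their own in the count matrix. The cells came from pre-diabetic female mice of the NOD strain, which develops autoimmune diabetes spontaneously, at 8 weeks and at 16 weeks of age. No treatment or engineered allele is given for either age. Live cells that stained for the beta chain of the T cell receptor were sorted from the islets, and 1 gene expression library and 1 receptor library were made per age with the droplet-based 10x 5' method. How many animals went into each library is not given in the labels.

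Most of these chains act in pairs. The common gamma chain, Il2rg, joins Il7r to bind IL-7, Il2rb to bind IL-2 and IL-15, Il4ra to bind IL-4, and Il21r to bind IL-21. Il6ra pairs with Il6st, Il10ra with Il10rb, Ifngr1 with Ifngr2 and Il18r1 with Il18rap. All but the IL-18 receptor signal through JAK kinases and STAT factors. IL-7 supports the survival of resting T cells, and regulatory T cells depend on IL-2.

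After filtering, 1831 T cells at 8 weeks and 1879 at 16 weeks remained, with a median of 2975 and 2929 unique molecular identifiers (UMIs, each counting 1 captured mRNA molecule) per cell. A cell was put in the Cd4 or Cd8 class by its UMIs of Cd4 or of Cd8a and Cd8b1, and Cd4 cells were split by whether a Foxp3 UMI was seen. This gave 642 and 634 Cd4 Foxp3-negative cells, 115 and 90 Cd4 Foxp3-positive cells, and 294 and 315 Cd8 cells at 8 and 16 weeks. The remaining 780 and 840 T cells had UMIs of neither gate or of both and entered no class comparison. Summed T cell markers (Cd3e, Cd3d, Cd3g and Lck were the 4 of 7 found) lay between 4970 and 5987 CPM (UMIs of a gene per 1000000 UMIs of the cells summed) in every class and age. The 6 Cd8 markers summed to 647 to 2082 CPM in the Cd4 classes and to 7240 to 8059 in the Cd8 class. Cd8a and Cd8b1 are among the 6 and also set the gate, so they had no UMIs in the Cd4 classes by definition. Part of this contrast was therefore fixed in advance. Markers of 10 acinar genes summed to 43.8 to 148, 6 endocrine genes to 6.30 to 58.6, and 6 myeloid genes to 180.2 to 309 CPM across classes. The 4 B cell genes Cd79a, Cd79b, Ms4a1 and Cd74 summed to 18.3 to 86.4 CPM. The part of these markers in the results was not tested. Il7r was also at 306 and 249 CPM in the 36 and 52 acinar-like cells that were left out, so no cell group in the files gives a background free of T cell RNA. The libraries shared 5 cell barcodes.

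Intervals are exact 95% Poisson intervals. Ratios are on the log2 scale with 0.5 UMIs added to each sum. With 1 library per age there is no test, and intervals cover counting error only: differences between animals or between libraries cannot be told apart from differences between ages. A gene with at least 50 UMIs in the cells compared was called when the ratio reached 1.5-fold in either direction.

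On the mouse genome (mm10, GENCODE M21), all 9 are protein-coding. Il7r lies on chromosome 15 at 9505788-9530176 on the minus strand and Il2rb on the same chromosome at 78479256-78495271, minus strand. Il4ra (7:125552120-125579474) and Il21r (7:125603429-125633570) are neighbours on the plus strand, 23955 bases apart with no annotated gene between them. The others are Il2rg at X:101264378-101268255 (minus), Il6ra at 3:89864059-89913196 (minus), Il10ra at 9:45253837-45269149 (minus), Ifngr1 at 10:19591949-19610229 (plus) and Il18r1 at 1:40465552-40500854 (plus). Annotated genes with a row of their own in the matrix overlap Il2rg, Il4ra and Il6ra. These rows held 0 UMIs at either age for Gm20489, 4 and 2 for the antisense gene in Il4ra, and 14 and 15 for the antisense gene in Il6ra, against 5054 and 4836 for Il2rg itself.

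RefSeq start sites (GRCm38.p6) were matched for 7 of the 9, and the 250 bases upstream of Ifngr1 and Il2rg are printed. In the class comparisons below, Ifngr1 was called in all 4 and Il2rg in none. Il6ra was also called in all 4 and Il4ra in none, but their windows overlap annotated exons. Both printed windows are free of annotated exons. Capitals mark matches on either strand to GGGCGG (Sp/KLF type), CAGGAAG (Ets type), TTCNNNGAA (STAT type) or TGTGGT (Runx type), and no matches overlap in these windows.
Ifngr1 chr10:19591699-19591948 (plus): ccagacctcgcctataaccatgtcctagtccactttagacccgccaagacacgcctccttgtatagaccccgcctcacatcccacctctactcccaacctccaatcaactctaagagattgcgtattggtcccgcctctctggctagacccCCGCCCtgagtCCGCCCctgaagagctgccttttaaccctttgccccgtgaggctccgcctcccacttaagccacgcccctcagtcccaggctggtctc
Il2rg chrX:101268256-101268505 (minus): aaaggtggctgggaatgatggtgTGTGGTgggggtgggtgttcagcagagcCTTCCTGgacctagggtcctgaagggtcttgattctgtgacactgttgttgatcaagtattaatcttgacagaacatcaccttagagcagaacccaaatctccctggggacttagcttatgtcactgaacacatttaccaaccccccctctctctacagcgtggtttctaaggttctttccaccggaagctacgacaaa
The Ifngr1 window holds 2 matches to GGGCGG, and the Il2rg window holds 1 Ets-type and 1 Runx-type match. Neither holds TTCNNNGAA. Among 32851 upstream windows of the same length, 32.7% hold GGGCGG, 10.8% CAGGAAG, 7.02% TTCNNNGAA and 14.05% TGTGGT. A match is a description of the letters and was not tied to any factor.

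Il7r and Il2rb divided the Cd4 compartment in opposite directions. Il7r, the chain specific to IL-7 and TSLP receptors, stood at 163 CPM in Foxp3-negative and 62.6 in Foxp3-positive cells at 8 weeks, and at 212 and 99.6 at 16 weeks. The intervals of the classes did not overlap at either age (148 to 178 against 47.2 to 81.5 at 8 weeks). The log2 ratio of Foxp3-positive over Foxp3-negative cells was -1.36 (-1.81 to -0.97) at 8 weeks and -1.08 (-1.48 to -0.73) at 16 weeks. Il2rb, the signalling chain shared by IL-2 and IL-15, ran the other way, at 409 CPM in Foxp3-positive against 219 in Foxp3-negative cells at 8 weeks. At 16 weeks the Il2rb levels were 341 and 178. The ratios were 0.90 (0.71 to 1.09) and 0.94 (0.71 to 1.17), and the Foxp3-positive class was the higher at both ages.

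The same contrast separated other chains. Ifngr1, the ligand-binding chain for interferon gamma, was at 224 CPM in Foxp3-positive and 71.7 in Foxp3-negative cells at 8 weeks, and at 223 and 96.8 at 16 weeks, giving ratios of 1.65 (1.36 to 1.93) and 1.20 (lower bound 0.90). Il6ra, the IL-6 binding chain, was lower in the Foxp3-positive class, at 45.5 against 75.6 and at 43.9 against 86.5, with ratios of -0.72 (-1.25 to -0.24) and -0.96 (-1.58 to -0.42). Il21r stood at 179 against 118 at 8 weeks (0.60) and at 195 against 141 at 16 weeks (0.47, under the threshold). Il18r1, the IL-18 binding chain, was at 53.5 against 37.2 (0.53) at 8 weeks and at 61.5 against 25.1 (1.30) at 16 weeks. Il10ra, the IL-10 binding chain, was at 43.3 against 29.5 (0.56) and at 45.4 against 26.3 (0.80). Il2rg was level, at 642 against 582 CPM at 8 weeks and 628 against 644 at 16 weeks, and Il4ra differed by 0.27 at both ages with intervals that span 0.

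In all, 5 of 9 receptors were called between Foxp3-positive and Foxp3-negative cells at 8 weeks, where 15.7% of all 6412 genes tested were. At 16 weeks 6 of 9 were called against 17.4% of 5976 genes. The median ratio over the 9 was 0.53 and 0.47, and over all tested genes 0.08 and 0.11. The Foxp3-positive cells had a median of 5778 and 6077 UMIs, and the Foxp3-negative cells 3190 and 3074. A proliferation-like cluster described below, with a median of 14168.5 UMIs, held 20.9% and 14.4% of Foxp3-positive cells. It held 6.54% and 4.26% of Foxp3-negative cells. The part of depth or of cell state in which cells showed a Foxp3 UMI was not tested. Classes were set at full depth, so thinning does not undo any selection by depth. When every cell was thinned to 1700 UMIs the Il7r ratio at 8 weeks was -1.97 and the Il2rb ratio 1.35, both farther from 0, and at 16 weeks they were -0.93 for Il7r, nearer to 0, and 1.15 for Il2rb. Markers of other cell types were higher in the Foxp3-positive class at both ages: the B cell genes summed to 78.5 against 20.6 CPM and 86.4 against 18.3, the acinar genes to 107 against 43.8 and 148 against 81.9, the endocrine genes to 19.4 against 6.30 and 58.6 against 9.53, and the myeloid genes to 297 against 218 and 309 against 224. Their part in the receptor ratios was not tested.

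**Figure D1:**
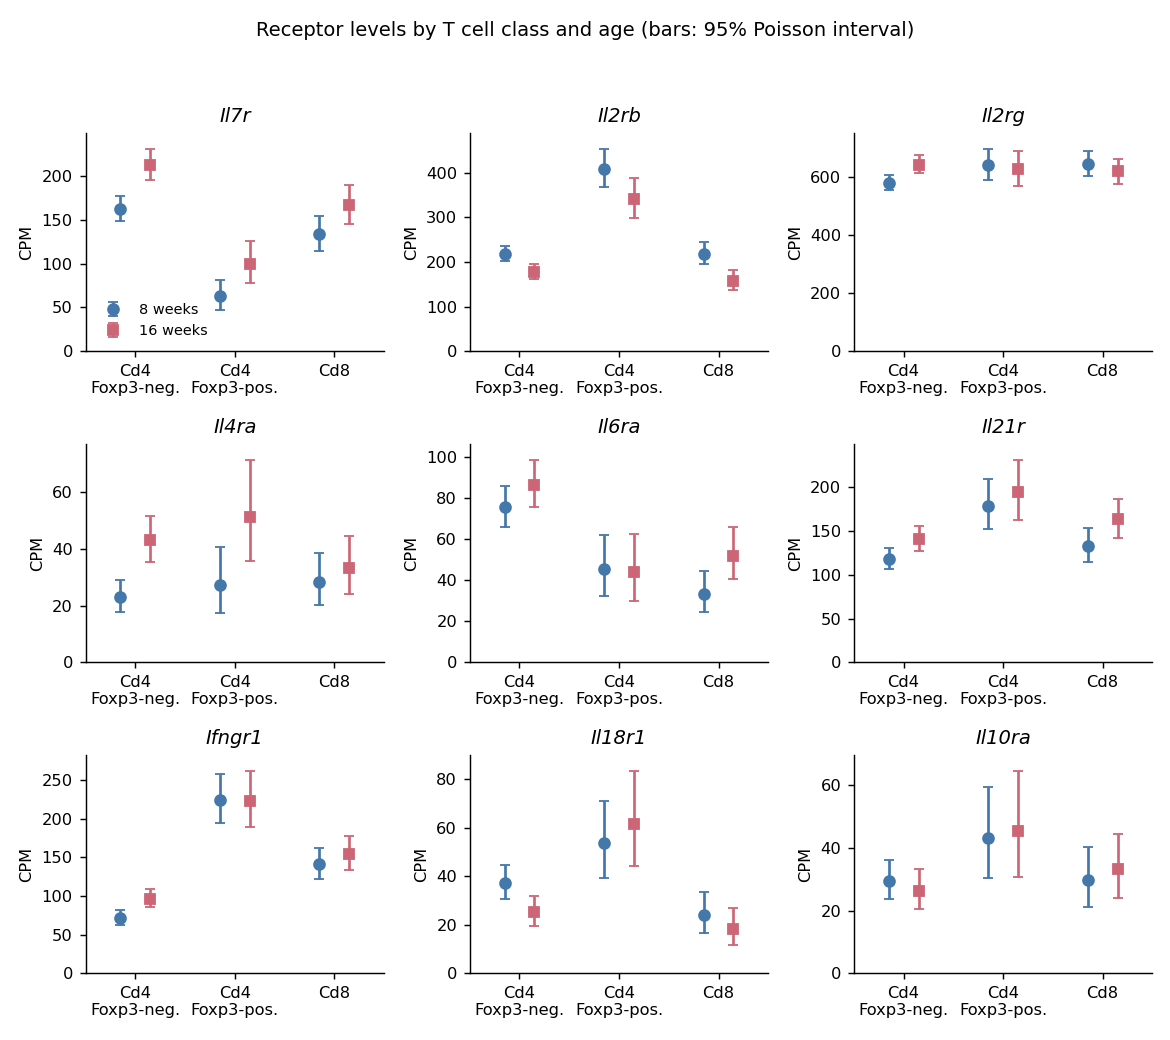
Level of each receptor gene, in CPM on a linear axis from 0, in 3 T cell classes at 8 weeks (blue circles) and 16 weeks (red squares), with bars for 95% Poisson intervals of 1 library each. Il7r is lowest and Il2rb and Ifngr1 are highest in the Foxp3-positive class at both ages, while Il2rg stays between 582 and 647 in all 6 groups.

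Foxp3-negative cells that clustered with regulatory T-like cells also had Il2rb above Il7r. Clusters were formed without the 9 receptors or 33 other listed cytokine receptor genes, so levels of these genes did not place cells. The regulatory T-like cluster, led by Areg, Ccr8 and Foxp3, held 50 Foxp3-negative cells at 8 weeks and 61 at 16 weeks. In these cells Il2rb was at 447 and 348 CPM and Il7r at 109 and 94.97. The Foxp3-positive cells of the same cluster had Il2rb at 558 and 396 and Il7r at 94.1 and 129. Il2rb above Il7r was not particular to this cluster. Foxp3-negative cells of the follicular helper-like cluster described below had Il2rb at 265 and 234 and Il7r at 67.0 and 53.6. In the whole Foxp3-negative class Il2rb was above Il7r at 8 weeks but not at 16 weeks.

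Among partner chains and other cytokine receptors, 12 of 33 listed genes reached 50 UMIs in this comparison. At 8 weeks 6 were called, all higher in Foxp3-positive cells, and at 16 weeks 4, all higher. Il2ra, the third chain of the high-affinity IL-2 receptor and a textbook regulatory T cell gene, was at 105 against 19.6 CPM at 8 weeks and at 76.2 against 15.6 at 16 weeks. Il10rb, the partner of Il10ra, was at 52.4 against 33.5 and at 63.0 against 30.5. Il1r2, a decoy receptor for IL-1, was called at 8 weeks, at 59.2 against 5.31. Of the targets and feedback genes of STAT signalling, Cish and Pim1 were called at both ages, with ratios of 1.51 and 0.92 for Cish and 1.46 and 1.14 for Pim1. In that list of 14, 12 were tested, and 3 were called higher and 1 lower at 8 weeks, and 4 higher and 0 lower at 16 weeks. None of 11 JAK and STAT genes was called at 8 weeks and 3 (Jak2, Tyk2, Stat5a) were called higher at 16 weeks. Among ligands, 3 of 12 were tested. Il10 was higher (55.8 against 6.64, and 57.1 against 12.6) and Il21 lower (17.1 against 52.4, and 16.1 against 59.1) in the Foxp3-positive class.

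Cd8 cells differed from Cd4 Foxp3-negative cells mainly in Il6ra and Ifngr1. The same Foxp3-negative cells serve as the reference here as above, so the contrasts share them. Il6ra stood at 33.3 CPM in Cd8 and 75.6 in Cd4 cells at 8 weeks, and at 52.0 and 86.5 at 16 weeks. Its ratio was -1.17 (-1.67 to -0.72) at the younger and -0.73 (-1.14 to -0.34) at the older age. Ifngr1 was higher in Cd8 cells, at 141 against 71.7 and at 155 against 96.8, with ratios of 0.98 (0.69 to 1.27) and 0.68 (0.40 to 0.95). The Cd8 intervals lay outside those of Cd4 cells for both genes at both ages.

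The other receptors were closer between the lineages. Il7r was somewhat lower in Cd8 cells, at 133 against 163 and at 167 against 212 (-0.28 and -0.35), and Il2rb was at 219 in both lineages at 8 weeks and at 158 against 178 at 16 weeks. Il18r1 was at 23.9 against 37.2 at 8 weeks (-0.62, -1.24 to -0.06), which was called, and at 18.1 against 25.1 at 16 weeks (-0.46), which was not. The 8-week call of Il18r1 was lost in 5 of 13 alternative settings, one of them without cluster 12 (-0.52), a small unnamed cluster rich in Il18r1. Il2rg, Il4ra, Il21r and Il10ra stayed within 0.37 of 0 at both ages. Calls were made for 3 of 9 receptors at 8 weeks against 13.3% of 6675 genes, and for 2 of 9 at 16 weeks against 12.4% of 6370 genes.

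Of the partner receptors, Il10rb was called higher in Cd8 cells at both ages (52.2 against 33.5 CPM at 8 weeks and 49.0 against 30.5 at 16 weeks). In that list 3 of 12 tested genes were called at each age, 2 higher and 1 lower at 8 weeks and 1 higher and 2 lower at 16 weeks. The ligand Il21 was far lower in Cd8 cells, with 3 UMIs in Cd8 cells against 158 in Cd4 Foxp3-negative cells at 8 weeks (-4.37, -6.89 to -3.02) and 4 against 155 at 16 weeks (-4.13, -6.19 to -2.91). Il21r, which reads it, was at 133 CPM in Cd8 and 118 in Cd4 cells at 8 weeks and at 164 and 141 at 16 weeks. Among feedback genes Socs2, an inhibitor of cytokine signalling, was lower in Cd8 cells at both ages (-1.80, -2.91 to -0.95, and -3.91, -7.30 to -2.32, the last from 2 UMIs in Cd8 cells). No JAK or STAT gene of 11 was called at 8 weeks, and Jak2 and Stat6 were called lower at 16 weeks.

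Between the ages, Il4ra gave the largest ratio of the 9 receptors in Cd4 Foxp3-negative cells. Il4ra, the chain that binds IL-4, stood at 22.9 CPM (17.8 to 29.0) at 8 weeks and 43.1 (35.5 to 51.8) at 16 weeks in Cd4 Foxp3-negative cells. The intervals do not overlap, and the ratio of 16 over 8 weeks was 0.91 (0.47 to 1.36). At the same threshold it was called in all 12 alternative settings run for that comparison, with ratios from 0.66 to 1.12, and it was not at 2-fold. It was the only receptor called of the 9 there, against 7.78% of 7330 genes. In Foxp3-positive cells Il4ra was at 27.3 and 51.3, with 24 and 35 UMIs (0.90, 0.12 to 1.72), but the ratio turned to -0.27 when cells were thinned to 1700 UMIs. In Cd8 cells Il4ra was at 28.3 and 33.2 (0.23, -0.42 to 0.89).

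Il7r was higher and Il2rb lower at 16 weeks in each class. Il7r was higher at 16 weeks by 0.38 (0.21 to 0.56) in Cd4 Foxp3-negative, by 0.67 (0.14 to 1.21) in Foxp3-positive and by 0.32 (0.03 to 0.61) in Cd8 cells, and only the Foxp3-positive value reached the threshold. That call was lost in 3 of 12 alternative settings, with a ratio of 0.40 when the regulatory T-like cluster was counted as Foxp3-positive. With cells thinned to 1700 UMIs the Il7r ratio was 0.08 in Foxp3-negative and 0.03 in Cd8 cells, and 1.12 in Foxp3-positive cells. Il2rb was lower at 16 weeks in all 3 classes, by -0.30 (-0.48 to -0.13), -0.26 (-0.50 to -0.02) and -0.47 (-0.73 to -0.21), and reached 1.5-fold in none of them. Calls were made for 2 of 9 receptors in Foxp3-positive cells (Il7r and Il4ra) against 11.2% of 3838 genes. In Cd8 cells Il6ra alone was called, at 33.3 and 52.0 CPM (0.64, 0.08 to 1.21), against 8.96% of 5166 genes, and the call was lost in 3 of 13 alternatives.

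Ifngr1, Il18r1, Il21r, Il2rg and Il10ra did not reach 1.5-fold between the ages in any class, though some of their intervals excluded 0. In Cd4 Foxp3-negative cells Ifngr1 was at 71.7 and 96.8 (0.43, 0.17 to 0.70) and Il18r1 at 37.2 and 25.1 (-0.56, -1.02 to -0.11), both with intervals that exclude 0. The Il18r1 ratio kept its sign in 11 of 12 alternative settings and was called in 4 of them, with values from -0.67 to 0.06, the last with thinned cells. Il21r was higher at 16 weeks by 0.26, 0.13 and 0.29 in Foxp3-negative, Foxp3-positive and Cd8 cells. Il2rg stayed within 0.15 of 0 in each class, and Il10ra within 0.17.

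**Figure D2:**
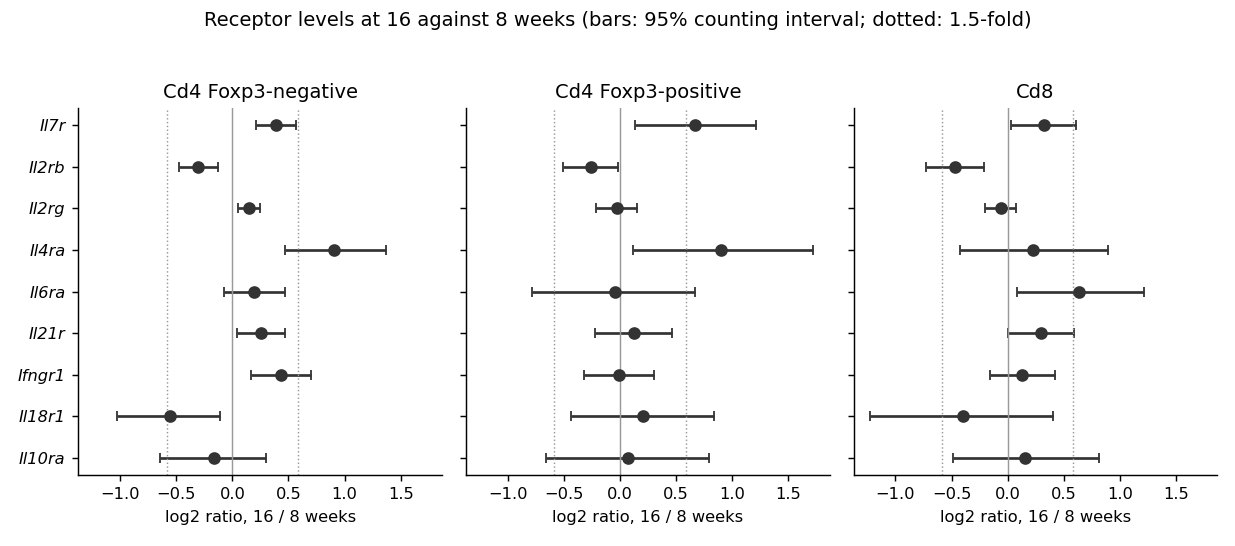
Log2 ratio of each receptor's level at 16 over 8 weeks in 3 T cell classes, with bars for 95% counting intervals, a grey line at 0 and dotted lines at 1.5-fold. Il4ra lies beyond the dotted line in both Cd4 classes, and Il2rb is below 0 in all 3 classes.

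Genes of the lists around the receptors were also compared between the ages. Ifngr2, the partner of Ifngr1, was at 8.96 and 17.9 CPM at 8 and 16 weeks in Cd4 Foxp3-negative cells (0.99, 0.29 to 1.74), and Myc, a target of several of these pathways, at 35.8 and 72.4 (1.01, 0.67 to 1.37). In that class 2 of 14 tested partner receptors, 1 of 11 JAK and STAT genes, 2 of 14 feedback genes and 1 of 3 ligands were called. Of all 7330 genes tested there, 7.78% were called. In Foxp3-positive cells the list counts were 1 of 11, 1 of 9, 3 of 12 and 0 of 2, against 11.2% of 3838 genes. In Cd8 cells they were 1 of 8, 2 of 10, 0 of 10 and 0 of 1, against 8.96% of 5166 genes. Il17ra, the partner gene called in Cd8 cells, was at 37.7 and 63.3 CPM.

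The composition of the classes also moved with age. Of Cd4 Foxp3-negative cells, the naive-like clusters 0 and 3 held 19.5% and 9.81% at 8 weeks and 24.3% and 20.7% at 16 weeks, and the follicular helper-like cluster 29.9% and 21.1%. The 6 naive markers summed to 1140 and 1829 CPM in that class, 660.2 and 892 in Foxp3-positive and 1342 and 2074 in Cd8 cells. The 5 proliferation markers summed to 825.5 and 432, 1780 and 1039, and 998 and 419.9 CPM. The naive-like clusters were the poorest in Il2rb and among the richest in Il7r and Il4ra. Over all T cells, Il2rb was at 14.5 and 8.51 CPM in cluster 0 and at 17.6 and 14.2 in cluster 3, and Il7r at 354 and 301 and at 492 and 424. In the follicular helper-like cluster Il2rb was at 259 and 235, Il7r at 56.4 and 49.8, Il4ra at 12.4 and 12.7, and Ifngr1 at 20.6 and 26.5.

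Within clusters the age ratios did not share 1 direction. In Foxp3-negative cells of naive-like cluster 0, Il7r was at 395 at 8 weeks and 293 at 16 weeks (-0.43, -0.80 to -0.07), and in unnamed cluster 2, led by Itgb1, Klf6 and Klf2, at 304 and 491 (0.69, 0.32 to 1.07). Over 8 class and cluster pairs with 50 or more cells at each age, Il7r was higher at 16 weeks in 4. Il4ra was higher at 16 weeks in 7 of the 8, with ratios from -0.01 to 1.22, and no single interval excluded 0. Il2rb was higher in 2 of the 8, and the intervals of 2 others lay below 0: Foxp3-positive cells of the regulatory T-like cluster (-0.49, -0.82 to -0.17) and Cd8 cells of the Cd8-like cluster (-0.52, -0.98 to -0.09). How much of a class ratio comes from composition was not tested.

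**Figure D3:**
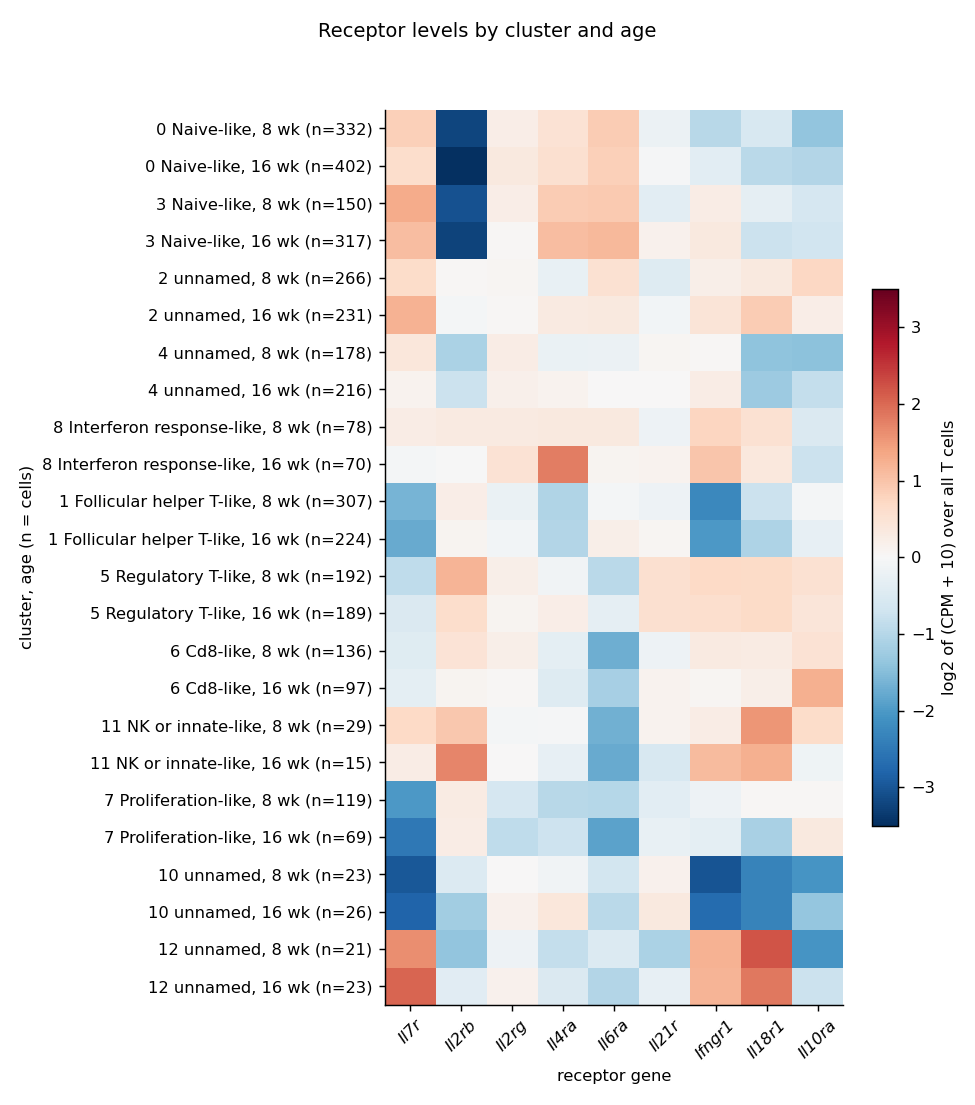
Log2 ratio of each receptor's level in each T cell cluster and age over its level in all T cells, with 10 CPM added to both. The deep blue Il2rb cells mark naive-like clusters 0 and 3, and the follicular helper-like cluster 1 is low in Il7r, Il4ra and Ifngr1 at both ages.

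Some small clusters stood far from the rest. Cluster 11, led by Ncr1 and Klra genes of natural killer cells, held 29 and 15 cells with Il2rb at 432 and 741 CPM and Il18r1 at 136 and 110. The naming rule, which used listed markers only, left cluster 12 unnamed, and its leading genes include Clu, Krt8 and Sox9 of pancreatic ducts. It held 21 and 23 cells with the highest Il7r of all clusters, 620 and 820 CPM, and Il18r1 at 219.7 and 170.0. Leaving cluster 12 out raised the number of receptors called between the ages in Cd4 Foxp3-negative cells from 1 to 2. The share of all genes called without that cluster is not given. The proliferation-like cluster 7, led by Ccna2 and Birc5, had Il7r at 40.8 and 25.8 and Il2rg at 415 and 329, the lowest Il2rg of the 12 T cell clusters.

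Across 18 points (9 clusters of 30 or more cells at both ages), Il2rb ran against Il6ra (Pearson r = -0.70) and Il7r (-0.62), while Il7r ran with Il2rg (0.73), Il4ra (0.72) and Il6ra (0.71). These are correlations of log2 levels across clusters that share a library at each age, given as a description. Among 3679 other genes, those most like Il7r were Emb, Kbtbd11 and Pag1 (0.94 each), and those most like Il2rb were Adam19 (0.95), AW112010 (0.95) and Cxcr3 (0.94). Il6ra was most like St6gal1 (0.92), Sepp1 (0.90) and Pecam1 (0.88). Il4ra was most like Rgs14 (0.90), Aff4 (0.88) and Fam102a (0.88), and Il2rg was most like Slc50a1, Ltb and Rabac1 (0.91 each). Il10ra was most like Gzmk, Nr4a2 and S100a10 (0.88, 0.88 and 0.87). Ifngr1 was most like Slc9a3r1, Selplg and Rassf1 (0.86, 0.82 and 0.81). For Il18r1 the closest were Fermt3, Inpp5d and Cish (0.85, 0.82 and 0.82), and for Il21r Acap1, Med15 and Ncor1, at no more than 0.72.

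Receptor levels also differed by clone size. A clone was a set of T cells of 1 library with the same V gene and CDR3 of both chains. Both chains were found in 1338 and 1358 T cells and not in 493 and 521. Cells whose receptor was seen once are called unexpanded. Their clones may have held further cells that were not captured or lacked a chain. Cells of clones of 2 or more (expanded cells) made up 114 of 495 Cd4 Foxp3-negative cells at 8 weeks (23.0%) and 54 of 491 at 16 weeks (11.0%). In Foxp3-positive cells there were 12 of 98 and 6 of 83, and in Cd8 cells 26 of 212 and 9 of 226. The largest clone held 14 T cells at 8 weeks and 7 at 16 weeks. Of 64 and 37 clones of 2 or more cells, 3 and 0 held cells of both the Cd4 and the Cd8 gate.

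In Cd4 Foxp3-negative cells Il7r was at 177 CPM (158 to 198) in unexpanded and 37.6 (25.2 to 54.0) in expanded cells at 8 weeks. At 16 weeks it was at 229.9 (209 to 253) and 49.7 (28.4 to 80.8). The ratios of expanded over unexpanded cells were -2.22 (-2.84 to -1.69) and -2.17 (-3.03 to -1.49), and Il7r was called at the 1.5-fold threshold in all 14 alternative settings at each age. By clone size at 8 weeks, Il7r was at 177 in clones of 1 cell, 46.0 in clones of 2 to 4 and 17.5 (4.77 to 44.9) in clones of 5 or more, the last from 4 UMIs in 39 cells. At 16 weeks these levels were 229.9, 48.3 and 54.6, the last from 4 UMIs in 12 cells, 3 of them in 1 cell, so clones of 2 to 4 and of 5 or more did not differ beyond counting error.

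Il2rb ran the other way. It was at 208 CPM (188 to 231) in unexpanded and 285 (249 to 325) in expanded cells at 8 weeks, and at 164 (146 to 183) and 314 (256 to 381) at 16 weeks. The ratios were 0.45 (0.21 to 0.70), under the threshold, and 0.94 (0.60 to 1.27). In clones of 5 or more cells it was at 394 and 396, with 1 cell holding 37.9% of the UMIs at 16 weeks. Il2rg, the chain that pairs with both, was lower in expanded cells by -0.36 and -0.24, under the threshold at each age.

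Il4ra and Ifngr1 were also lower in expanded Cd4 cells at both ages. Il4ra had 5 UMIs (6.48 CPM) in expanded and 48 (26.6) in unexpanded cells at 8 weeks, and 4 (12.4) and 91 (48.1) at 16 weeks, with ratios of -1.92 (-3.72 to -0.72) and -1.79 (-3.86 to -0.55). Ifngr1 was at 40.2 against 83.1 and at 52.8 against 104 CPM, with ratios of -1.03 (-1.66 to -0.48) and -0.94 (-1.79 to -0.26). Il18r1 was called at 8 weeks (27.2 against 42.1, -0.61, -1.40 to 0.08), a call held in 7 of 14 alternative settings, and Il6ra at 16 weeks (46.6 against 85.1, -0.83, -1.74 to -0.10). Il6ra was at 66.1 against 75.9 at 8 weeks, and Il18r1 at 24.9 against 25.9 at 16 weeks. Il10ra was at 37.6 against 27.2 and, called at 16 weeks, at 52.8 against 21.1 (1.35, 0.41 to 2.17), where 1 cell held 58.8% of the 17 UMIs of expanded cells. With the Il10ra UMIs of the richest cell left out on each side, the Il10ra ratio was 0.20. Il21r differed by -0.14 and -0.27.

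Calls were thus made for 4 of 9 receptors at 8 weeks, against 14.9% of 5121 genes tested, and for 6 of 9 at 16 weeks, against 24.1% of 4647 genes. Expanded cells had more UMIs, with medians of 4925 against 3311 at 8 weeks and 4760 against 3247 at 16 weeks.

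**Figure D4:**
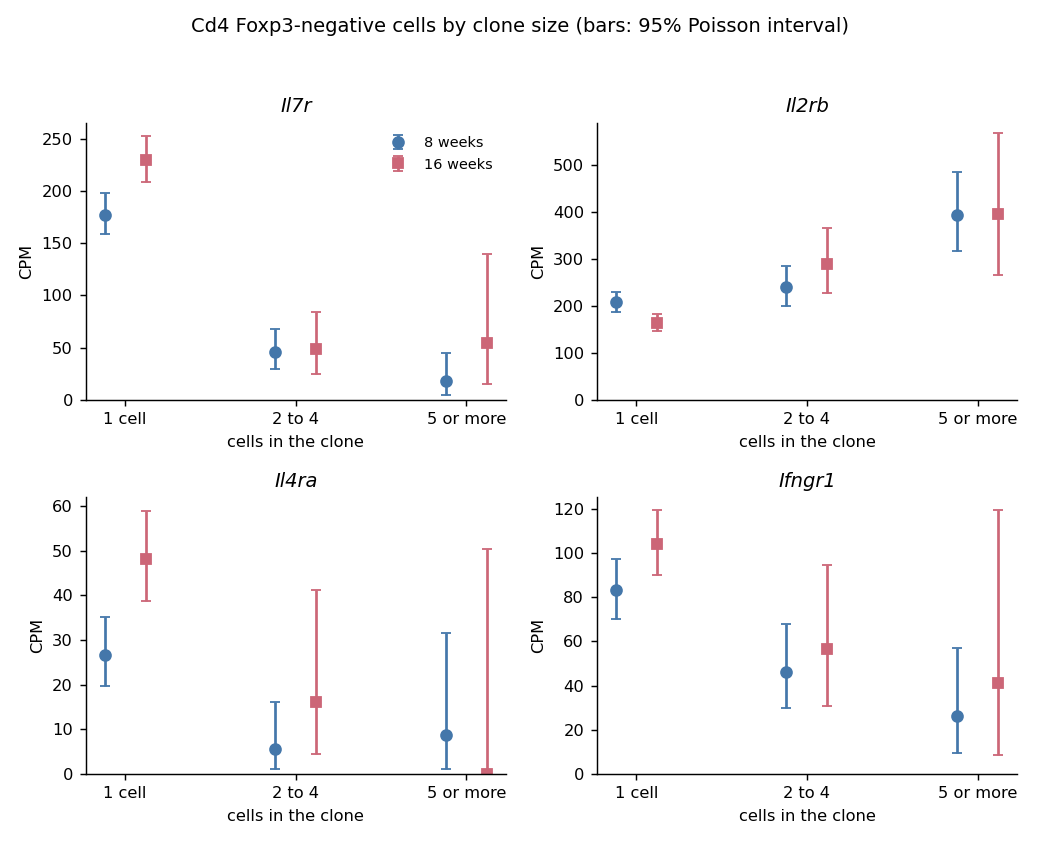
Level of 4 receptor genes, in CPM from 0, in Cd4 Foxp3-negative cells by the number of T cells in their clone, at 8 weeks (blue circles) and 16 weeks (red squares), with 95% Poisson intervals. Il7r, Il4ra and Ifngr1 are highest in clones of 1 cell at both ages, and Il2rb is highest in clones of 5 or more.

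Expanded Cd4 cells were concentrated in the follicular helper-like cluster, led by Tnfsf11, Angptl2 and Tox2. The name rests on 3 of 7 listed markers, Tox2, Cd200 and Sh2d1a. Cxcr5, Bcl6, Il21 and Sostdc1 were not among its 50 leading genes, which had to reach 100 CPM. It held 66.7% of expanded and 21.5% of unexpanded Cd4 Foxp3-negative cells at 8 weeks, and 53.7% and 18.5% at 16 weeks. No expanded Foxp3-negative cell lay in naive-like clusters 0 and 3, which held 22.8% and 11.8% of unexpanded cells at 8 weeks and 24.9% and 21.5% at 16 weeks. Inside the follicular helper-like cluster, Il7r was at 40.3 CPM in 76 expanded and 82.9 in 82 unexpanded cells at 8 weeks (-1.01, -2.01 to -0.14). At 16 weeks it was at 46.0 in 29 expanded and 55.6 in 81 unexpanded cells (-0.19, -1.87 to 1.07). Both ratios are nearer to 0 than those of the whole class. Ifngr1 within the cluster was at 16.1 against 20.2 and at 15.3 against 22.8, with intervals that span 0, and Il2rb at 285 against 249 (0.20, -0.20 to 0.59) and at 261 against 222 (0.24, -0.39 to 0.82). Il4ra had 0 against 4 UMIs and 1 against 7 there, too few to compare.

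The regulatory T-like cluster held 14.9% of expanded and 6.04% of unexpanded Foxp3-negative cells at 8 weeks, and 24.1% and 10.1% at 16 weeks. Inside it Il7r had 7 UMIs in 17 expanded and 21 in 23 unexpanded cells at 8 weeks (-1.30, -2.84 to -0.07), and 2 in 13 and 31 in 44 cells at 16 weeks (-1.60, -5.01 to 0.08). Il2rb was at 528 against 411 CPM (0.36, -0.17 to 0.89) and at 551 against 287 (0.95, 0.33 to 1.53). In the proliferation-like cluster, with 14.0% of expanded cells at 8 weeks and 18.5% at 16 weeks, the directions differed. Il7r had 3 UMIs in 16 expanded and 8 in 22 unexpanded cells at 8 weeks (-0.86, -3.54 to 1.07), but 8 in 10 and 1 in 16 cells at 16 weeks (3.22, 0.82 to 9.19). Il2rb there was at 164 against 259 CPM (-0.65, -1.24 to -0.10) and at 247 against 246 (0.02, -0.70 to 0.69).

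**Figure D5:**
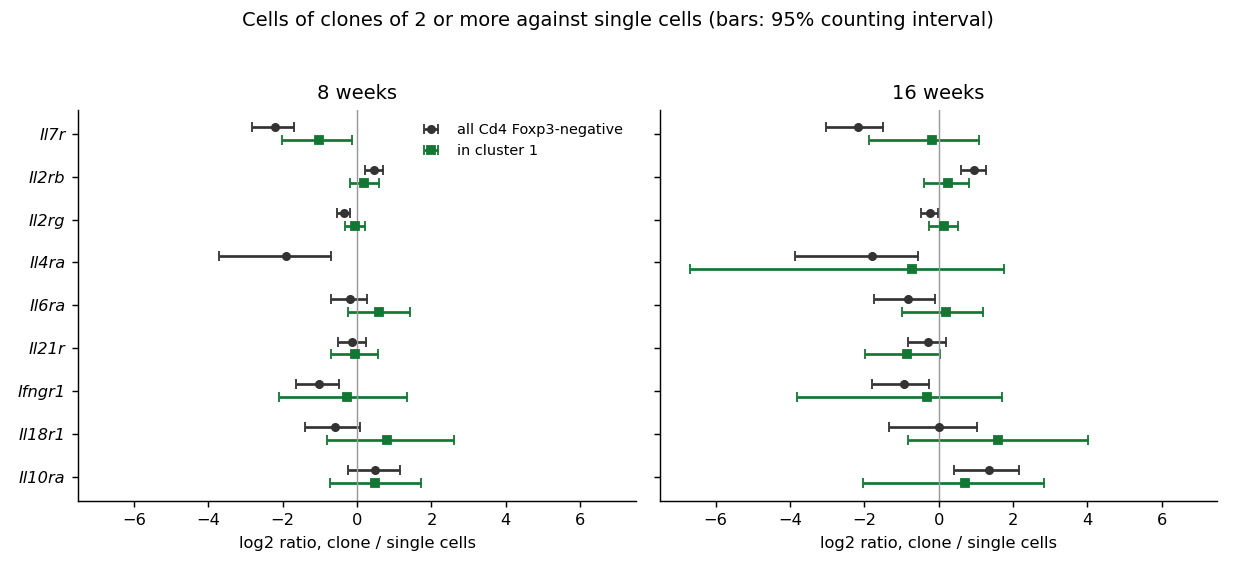
Log2 ratio of each receptor's level in expanded over unexpanded Cd4 Foxp3-negative cells, for the whole class (black circles) and inside the follicular helper-like cluster 1 (green squares), with 95% counting intervals and no point where a side had 0 UMIs. For Il7r the green points lie at -1.01 and -0.19, and the black points at -2.22 and -2.17.

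There were 5 clones with 5 or more Cd4 Foxp3-negative cells, 4 at 8 weeks and 1 at 16 weeks. Together their 34 cells gave 2 Il7r and 80 Il2rb UMIs out of 191227. Il7r had 0 UMIs in 3 of the 5. In the largest, 12 cells with 72416 UMIs, 9 of them in the follicular helper-like cluster, Il7r had 0 UMIs, where a floor of 3 UMIs stands at 41.4 CPM, and Il2rb had 26 (359 CPM). The only 16-week clone of the 5 had 0 Il7r and 22 Il2rb UMIs in 6 cells. Cells of 1 clone share an ancestor and are not independent of each other. Without the largest clone the ratios of expanded over unexpanded cells were -2.07 and -1.97 for Il7r and -0.89 and -0.91 for Ifngr1. Then 3 and 7 receptors passed 1.5-fold, and the share of all genes at this setting is not given.

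Expanded Cd8 cells were few. At 8 weeks Il7r had 6 UMIs (31.5 CPM) in 26 expanded cells and 140 (149 CPM) in 186 unexpanded cells (-2.13, -3.71 to -1.08). Ifngr1 was at 62.9 against 160.2 (-1.29, -2.33 to -0.50), and Il2rb at 257 against 224 (0.21, -0.28 to 0.65). At 16 weeks there were 9 expanded cells with 3 Il7r UMIs (54.3 against 153 CPM, -1.27, -3.78 to 0.08) and 8 Il2rb UMIs (145 against 149). Il6ra had 0 UMIs there, where a floor of 3 UMIs stands at 54.3 CPM, and was at 53.9 in unexpanded cells, so no difference was detectable at this depth. Of the 5 receptors with 50 or more UMIs at 8 weeks, 2 were called, against 26.6% of 2770 genes. At 16 weeks 4 of 6 were called, against 44.9% of 2469 genes. The call of Il6ra rests on the 0.5 UMIs added to its sum of 0, and each of the 4 (Il7r, Il2rg, Il6ra, Ifngr1) turned its direction in 1 of 13 alternative settings.

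Ligand genes moved with clone size in Cd4 Foxp3-negative cells. Il21, the follicular helper cytokine read by Il21r and also on the list of follicular helper markers, was at 88.1 CPM in expanded and 36.6 in unexpanded cells at 8 weeks (1.27, 0.76 to 1.78) and at 112 and 57.1 at 16 weeks (0.98, 0.38 to 1.53). Ifng, the ligand of Ifngr1, was at 95.9 against 53.2 (0.85, 0.39 to 1.30) and at 124 against 40.7 (1.62, 1.02 to 2.18). These were 2 of 2 tested ligands at each age. Of 12 tested feedback genes, 3 were called lower at 8 weeks (Socs3, Myc, Irf1), and 5 lower and 1 higher at 16 weeks. Socs3, an inhibitor induced by IL-6 and other cytokines, was at 29.8 against 91.5 and at 28.0 against 81.9. Of 9 partner receptors tested, 1 was called at 8 weeks, Il27ra, at 66.1 against 108 (-0.70, -1.18 to -0.26). At 16 weeks 2 were called lower, Ifnar1 (3 UMIs in expanded cells, -1.62, -4.15 to -0.22) and Tgfbr2 (90.1 against 154, -0.75, -1.38 to -0.22), and 1 higher, Crlf2, the chain that joins Il7r to bind TSLP, at 171 against 77.7 (1.15, 0.66 to 1.59). Of 9 JAK and STAT genes tested, 0 and 3 were called.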

How the data were processed

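Single-cell gene expression and T cell receptor libraries of sorted islet T cells at 2 ages were used. The authors deposited raw UMI counts per gene and cell for 27998 genes (filtered matrices of software version 3.0.1 per the file headers, genome mm10 and the tool Seurat per the submitters' processing notes) and, per the file headers, receptor contigs with their UMI counts. Library totals were 8659371 and 8183747 UMIs. Which strand or overlap rules the counting used is not given in the sources used here. Cells with 500 or more genes and at most 10% mitochondrial UMIs were kept (1875 of 2043 and 1934 of 2107). They were scaled to 10000 UMIs, log-transformed and clustered with scanpy 1.11.5 on 2000 variable genes (30 components, 15 neighbours, Leiden resolution 1). T cell receptor, ribosomal, mitochondrial, Xist, Gm42418 and the listed cytokine receptor genes were left out of the clustering. Clusters were named only from 3 or more listed markers. Acinar-like (36 and 52) and B-like (8 and 3) cells were left out. No doublet caller was run, and 200 and 233 T cells with 2 or more beta chains were left out in an alternative. Ratios of summed counts have exact conditional intervals and were tried on simulated counts. Those counts were drawn with Poisson error, as the intervals assume, so the simulation does not cover spread between cells, clones or animals. The receptors, gene lists and comparisons were chosen with earlier results of these data known. Named list genes were those called for a partner, ligand, kinase or feedback target, at most 5 per list, and the genes most like a receptor were the 3 with the highest Pearson correlation of log2(CPM + 10) over clusters and ages. The alternatives without cluster 12 and without the proliferation-like cluster were added after seeing the data.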

Additional observations from a re-analysis of the deposited data

How the results depend on the processing

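Of 153 counts of called receptors recomputed under alternatives, 127 stayed within 1.5 times the reported count, and of 502 values of called receptors 477 moved by less than their counting error, 19 moved more and 6 changed sign. With a threshold of 2-fold, 0 receptors were called between the ages in any class, 1 and 0 between Cd8 and Cd4 cells at 8 and 16 weeks, 2 and 3 between Foxp3-positive and Foxp3-negative cells, 3 between expanded and unexpanded Cd4 cells at 16 weeks, and 2 in Cd8 cells at 16 weeks. Between the ages, 2 were called in Foxp3-negative cells with equal weight per cell, with the regulatory T-like cluster counted as Foxp3-positive, without the richest cell of each gene and without cluster 12. In Foxp3-positive cells the count was 0 with equal weight, and 1 with thinned cells, without cells of 2 or more beta chains and with the regulatory T-like cluster counted as Foxp3-positive. In Cd8 cells it was 0 with equal weight, thinned cells or without cells of 2 or more beta chains. By clone size, stricter cells (1000 genes, 5% mitochondrial) gave 2 in Cd4 cells at 8 weeks and 2 in Cd8 cells at 16 weeks, no filter on genes gave 5 in Cd8 cells at 8 weeks, and a pseudocount of 5 gave 2 and leaving out cells of 2 or more beta chains or the proliferation-like cluster 1 in Cd8 cells at 16 weeks. The sign changes were Il4ra with age in thinned Foxp3-positive cells (-0.27), Il6ra in Cd4 clones of 5 or more at 16 weeks (0.44), and, in Cd8 clones at 16 weeks, Il6ra (0.62) and Ifngr1 (0.19) with a pseudocount of 5, and Il7r (0.00059) and Il2rg (0.0945) without cells of 2 or more beta chains. The cause was not tested. Shares of all genes are given above for the main setting only, so no count under an alternative can be set against one. No paired analysis was possible because each age has 1 library. Depth limits genes of few UMIs, such as Il4ra, Il10ra and Il18r1, and the small groups of expanded Cd8 cells.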
